A study of Mus musculus with 30 samples.

Results

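Transcript levels of 7 enzymes of sphingolipid metabolism were followed in single muscle fibres whose mitochondrial calcium uniporter had been raised or silenced: the sphingosine kinases Sphk1 and Sphk2, the sphingomyelin synthases Sgms1 and Sgms2, the sphingosine-1-phosphate lyase Sgpl1, the sphingosine-1-phosphate phosphatase Sgpp1 and the glucosylceramide synthase Ugcg. The members were all probes whose gene name on the array was one of these 7, which gave 9 probes among 55681; all 9 were among the 33164 probes, and all 7 genes among the 23342 genes, that passed the filter on dim signal. Sphk1 and Sgms2 were chosen for their lower levels in silenced fibres than in transfected controls, so for that comparison their values are a description without a test. The other genes entered as neighbours in the pathway.

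All 30 fibres were taken from EDL muscle (extensor digitorum longus, a hindlimb muscle made mostly of fast fibres) of male CD1 mice aged 8 weeks, and each was hybridised to a 1-colour Agilent array. The groups were fibres given an adeno-associated virus (AAV) carrying MCU, the pore subunit of the uniporter (3 fibres 7 days and 4 fibres 14 days after injection), set against wild type fibres without virus (4 on each day), and fibres given an AAV that silences MCU (3 at 7 days, 4 at 14 days), set against transfected controls (4 on each day). The labels describe the transfected controls both as a hairpin against luciferase and as virus without a cloned insert. Fibres of injected muscles were picked for a green fluorescent marker, and those of the MCU groups were kept only where quantitative PCR had shown the intended change of MCU. MCU-vector fibres thus differed from wild type fibres by the virus and this picking as well as by MCU, and these cannot be told apart. The design text calls the fibres biological replicates but names no animals, so the spread is that between fibres, which may share an animal.

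Each slide held one treated group and its control of one day, with the treated fibres always in slide columns 1 and 2 and the controls in columns 3 and 4, so position on the slide and treatment cannot be told apart. No slide carried both transfected controls and wild type fibres, so their difference and that between slides cannot be told apart. The 75th percentile of the signal lay between 83.2 and 138 intensity units per array, and the share of probes well above background lay between 49.4% and 59.5%. The 3 silenced arrays of day 7 were dimmer, with a 75th percentile of 103.8, 83.2 and 87.7 intensity units, against 108.2 to 128.0 in their controls, and 49.4% to 53.0% of their probes were well above background, against 50.9% to 55.4%. The part of this difference in the day 7 results was not tested. As a check of the labels, in fibres already selected by PCR for their MCU level, Mcu was 2.25 higher on the log2 scale with the MCU vector than in wild type over both days (SE 0.28, adjusted p = 7.86e-06 in limma), but the day 7 difference was 0.60 (adjusted p = 0.999), and it was 2.58 lower with silencing than in transfected controls (SE 0.28, adjusted p = 2.69e-06). All 8 fast fibre markers were well above background in every group. One MCU-vector fibre of day 7, fibre 1, stood apart from the other 2 of its group in several of the genes below, and results that rest on it are also given without it.

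Ceramide is the hub of sphingolipid metabolism. It is made from serine and a fatty acid, turned into sphingomyelin by the sphingomyelin synthases or into glucosylceramide by Ugcg, and broken down to sphingosine. Sphingosine kinases add a phosphate to sphingosine, and the product, sphingosine-1-phosphate (S1P), is a lipid signal that acts on cell-surface receptors; a phosphatase such as Sgpp1 returns it to sphingosine, while the lyase Sgpl1 cleaves it for good. In skeletal muscle S1P is known for its role in satellite cell activation and repair after injury.

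Levels are log2 of the processed spot intensity minus the 75th percentile of that array, so 0 is the 75th percentile of all probes on the array. Values of different probes are not set against each other, since a probe's brightness also depends on its sequence. Sphk1 and Sgms1 had 2 probes each, both described; for a gene-wise test the brighter one, called the chosen probe, stood for the gene. The probes of the genes that differed most between groups are given 5′ to 3′ as deposited, because each is the stretch of transcript the values were read from. The Sphk1 chosen probe is given whole and the others by their first 30 bases.

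Sphk1 chosen probe: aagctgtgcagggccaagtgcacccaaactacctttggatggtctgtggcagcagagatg
Sphk1 second probe: ttgcatatagaagacactccccattgctct
Sgms2 probe: taaaatgaagtggaccaaattttatgcaaa
Sgms1 chosen probe: aggtttgctcgcctggggttttatacagtc
Sgms1 second probe: ttataagtgaagtagaagtttgaatagaat

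By the positions in the files, on mouse build mm9, the Sphk1 chosen probe lies at chr11:116397591-116397650 and the Sphk1 second probe at chr11:116397908-116397967, both on the plus strand. The Sgms2 probe lies at chr3:131025871-131025930, minus strand. The Sgms1 chosen probe lies at chr19:32198259-32198318 and the Sgms1 second probe, which the files pair with the cDNA AK082974 and not with the RefSeq transcript, at chr19:32232746-32232805, both on the minus strand. Sphk2 was read at chr7:52965655-52965714, Sgpl1 at chr10:60561392-60561451 and Sgpp1 at chr12:76815342-76815401, all on the minus strand, and Ugcg at chr4:59235333-59235392 on the plus strand. The files do not say whether a probe lies in coding sequence or a UTR.

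The kinase Sphk1, chosen for this comparison, was lower in silenced fibres. It stood at 0.81, -0.76 and -0.46 in the 3 fibres of day 7, against 4.23, 4.37, 3.15 and 3.27 in the transfected controls of day 7. The day 14 values were 1.23, -0.29, 0.62 and 1.86 in silenced fibres, against 5.18, 3.69, 3.46 and 4.03 in transfected controls. Every silenced fibre lay below every control fibre on both days. The difference was -3.56 over both days (SE 0.41), an 11.8-fold lower level, with -3.89 (SE 0.61) at day 7 and -3.24 (SE 0.56) at day 14. The second Sphk1 probe, well above background on 19 of 30 arrays, gave the same order on both days and a difference of -4.68 (SE 0.87), or 25.6-fold. Leaving out any single fibre kept the difference of the chosen probe between -3.80 and -3.37.

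In MCU-vector fibres Sphk1 was at 2.21, -1.10 and -0.67 at day 7, against -0.94, -1.13, -0.81 and -1.17 in wild type. On day 14 the levels were -0.85, 0.56, -0.61 and 0.67 with the MCU vector, against -0.56, -0.68, -1.06 and -0.52 in wild type. Wild type fibres lay close together, and 3 of the 7 MCU-vector fibres lay clearly above them while the others did not, so the groups overlapped on both days. The difference over both days was 0.90 (SE 0.41, 95% interval 0.05 to 1.76) and did not pass the test (adjusted p = 0.345). Without fibre 1 of day 7 it was 0.39 (SE 0.35, adjusted p = 0.750). The second probe, well above background in 3 of 7 MCU-vector fibres and 2 of 8 wild type fibres, gave 1.09 (SE 0.87, adjusted p = 0.643) and 0.02 (SE 0.74) without that fibre, and from 0.31 to 1.46 under 12 other settings. Values below background set much of its size.

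Over both days the mean Sphk1 level was 0.43 ± 0.96 in the 7 silenced fibres (SD), against 3.92 ± 0.68 in the 8 transfected controls, and 0.03 ± 1.18 in the 7 MCU-vector fibres, against -0.86 ± 0.26 in the 8 wild type fibres. The order of the means was thus transfected control, silenced, MCU vector, wild type. The highest fibre outside the transfected controls, at 2.21, was below the lowest of them, at 3.15. The ranges of silenced and MCU-vector fibres overlapped. Levels ran from -0.76 to 1.86 in silenced fibres, against -1.17 to -0.52 in wild type. Silenced fibres and transfected controls were on other slides than MCU-vector and wild type fibres, so across these pairs of arms the levels are set side by side only, without a test.

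**Figure D1:**
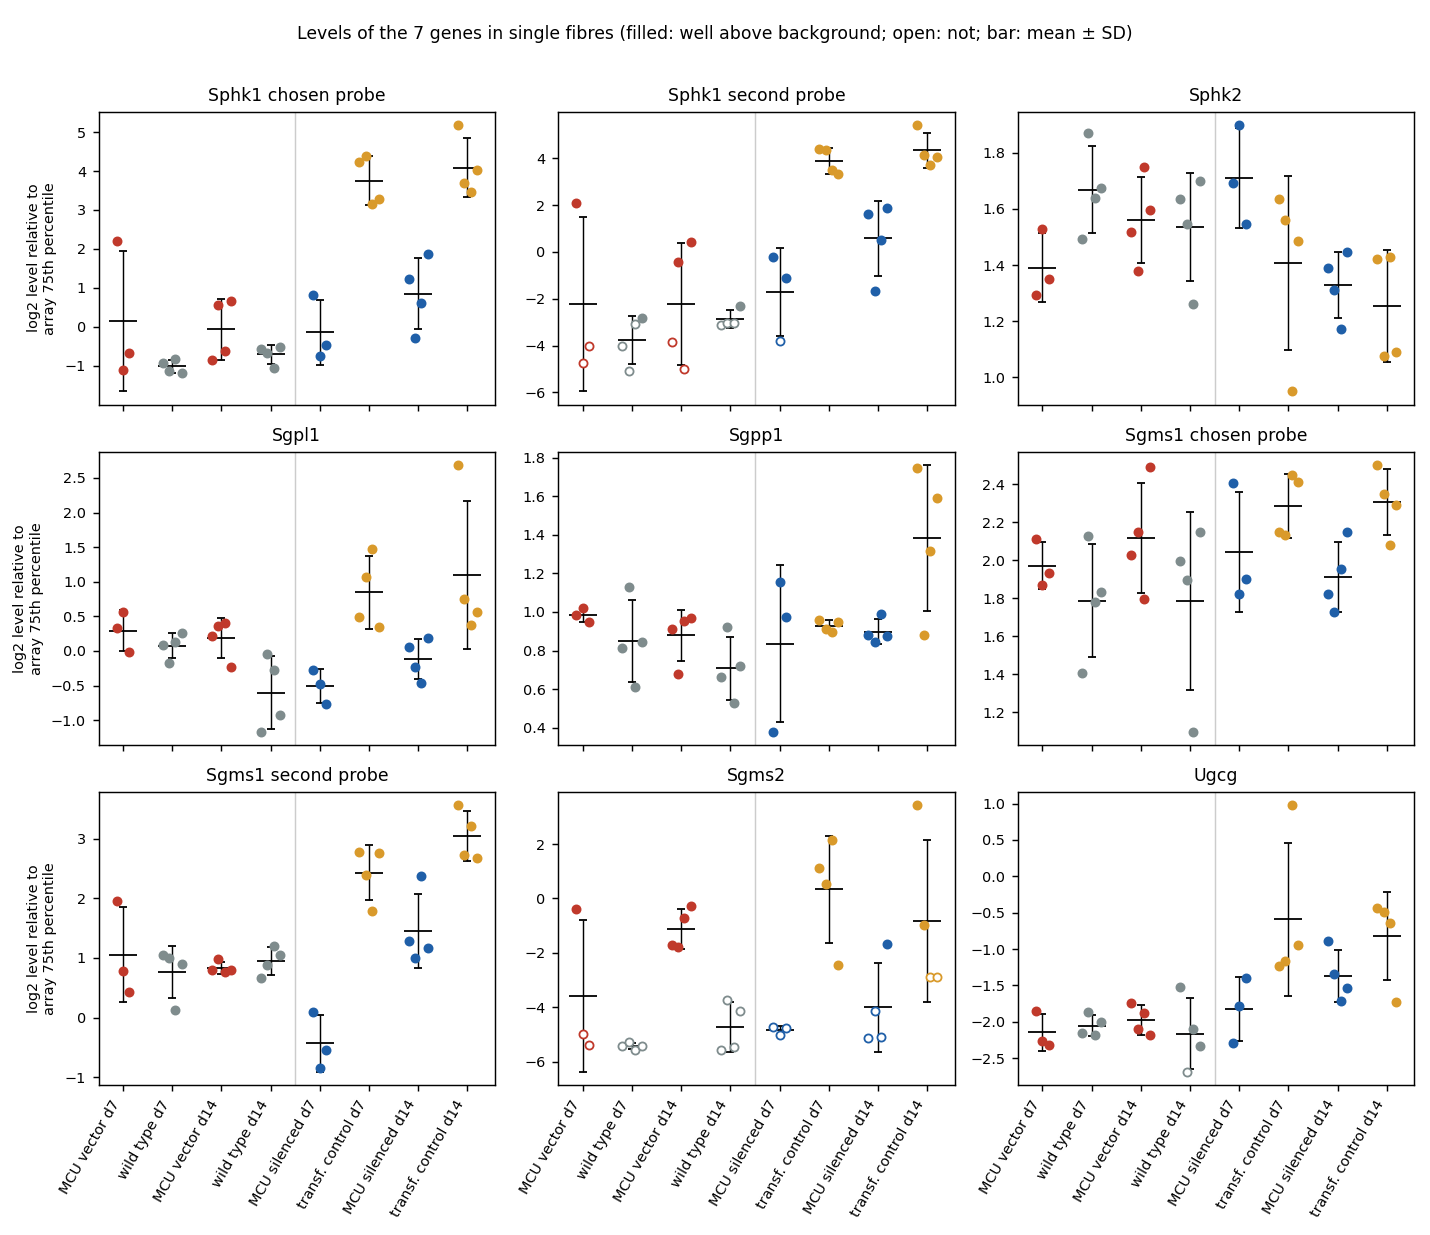
Levels of the 9 probes in each fibre, as log2 relative to the 75th percentile of the array, by group in 9 panels with their own y axes; filled points are well above background, open points are not, and bars are mean ± SD. The panels of both Sphk1 probes, the second Sgms1 probe and Sgpl1 show silenced fibres below all transfected controls of the same day, on both days (d7 and d14). The Sgms2 panel shows no filled point in wild type.

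The other sphingosine kinase, Sphk2, which is found largely in the nucleus and mitochondria, showed no such pattern. Its level ranged from 1.17 to 1.90 in silenced fibres, against 0.95 to 1.63 in transfected controls. The difference was 0.19 over both days (SE 0.10, 95% interval -0.03 to 0.41, adjusted p = 0.228). It ranged from 1.29 to 1.75 with the MCU vector, against 1.26 to 1.87 in wild type, a difference of -0.13 (SE 0.10, 95% interval -0.34 to 0.09, adjusted p = 0.648). Groups overlapped in both comparisons on both days.

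Of the S1P-removing enzymes, the lyase Sgpl1 was lower with silencing. It stood at -0.27, -0.48 and -0.77 in silenced fibres of day 7, against 0.49, 1.08, 1.47 and 0.34 in transfected controls. Day 14 levels were 0.05, -0.23, -0.47 and 0.18 in silenced fibres, against 2.69, 0.75, 0.38 and 0.56 in transfected controls. On both days the groups did not overlap, although the highest silenced and lowest control fibres of day 14 were 0.18 and 0.38. Sgpl1 fell by 1.28 over both days (SE 0.26, 2.43-fold, adjusted p = 0.00221). It fell by 1.35 at day 7 (SE 0.38, adjusted p = 0.0208), and the day 14 difference of -1.21 did not pass (SE 0.35, adjusted p = 0.0564). Fibre 1 of the day 14 controls, at 2.69, was far above its group, and without it the day 14 difference was -0.68 while that over both days was -1.01 (SE 0.19, adjusted p = 0.00116). The call at day 7 was lost when fibre 3 of the day 7 controls (adjusted p = 0.0661) or fibre 2 or 3 of the silenced group (0.0523 and 0.0846) was left out, on only the groups compared (0.0904) and with array weights (0.0578).

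Sgpl1 ranged from -0.24 to 0.57 with the MCU vector, against -1.17 to 0.26 in wild type. The difference of 0.50 did not pass (SE 0.26, 95% interval -0.03 to 1.04, adjusted p = 0.409). The S1P phosphatase Sgpp1 ranged from 0.38 to 1.16 in silenced fibres, against 0.88 to 1.74 in transfected controls. Its difference of -0.29 did not pass (SE 0.12, adjusted p = 0.0976). It passed after median scaling (-0.41, adjusted p = 0.0296) and after normexp background correction (-0.27, adjusted p = 0.0417). It also passed without fibre 2 of the day 14 controls (adjusted p = 0.0229) or fibre 2 of the day 7 silenced group (0.0464). Sgpp1 ranged from 0.68 to 1.02 with the MCU vector, against 0.53 to 1.13 in wild type, a difference of 0.15 (SE 0.12, adjusted p = 0.611). Sgpp1 thus had overlapping groups on both days in both comparisons.

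The sphingomyelin synthase Sgms2, which works at the plasma membrane as well as the Golgi, was near the limit of detection. It was well above background in 1 of 7 silenced fibres, against 6 of 8 transfected controls, and in 5 of 7 MCU-vector fibres, against 0 of 8 wild type fibres. At day 7 it was -4.74, -5.02 and -4.77 in silenced fibres, none of them well above background, against 1.10, 0.55, 2.13 and -2.44 in transfected controls. At day 14 the levels were -5.13, -4.12, -5.11 and -1.67 in silenced fibres, against 3.42, -0.98, -2.88 and -2.87 in transfected controls. The groups did not overlap at day 7 but did at day 14, where fibre 4 of the silenced group was above 2 of the 4 controls. At day 7 the level was at least 8.33-fold lower in silenced fibres. A bound takes the higher of a dim probe's own value and the lowest signal among probes well above background on that array. The measured difference over both days was -4.18 (SE 0.85), but values below background set its size: with dim spots at that floor it was -2.38, and after normexp background correction it was -1.66. Without fibre 1 of the day 14 controls, at 3.42, the difference at day 14 was -1.77, against -3.18 with it.

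In MCU-vector fibres Sgms2 was at -0.38, -5.00 and -5.39 at day 7, against -5.42, -5.29, -5.57 and -5.42 in wild type. On day 14 Sgms2 stood at -1.71, -1.79, -0.70 and -0.29 with the MCU vector, against -5.56, -3.73, -5.45 and -4.13 in wild type. At day 14 every MCU-vector fibre was above every wild type fibre, by at least 4.86-fold between the group means. Across all genes, 3.91% had MCU-vector fibres above wild type fibres without overlap at day 14. Wild type values below background set the size of the fitted differences. The test was not passed at day 14 (3.60, SE 1.15, adjusted p = 0.207) or over both days (2.72, SE 0.85, adjusted p = 0.131). Over both days it passed when only the groups compared entered the fit (adjusted p = 0.0491) and with array weights (2.34, adjusted p = 0.0423). It was 1.42 with dim spots at the floor (adjusted p = 0.362), 0.81 after normexp (adjusted p = 0.399) and 1.91 without fibre 1 of day 7 (adjusted p = 0.379).

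The Golgi sphingomyelin synthase Sgms1 gave different answers by its 2 probes. The chosen probe ranged from 1.73 to 2.41 in silenced fibres, against 2.08 to 2.50 in transfected controls, and did not pass (-0.32, SE 0.14, adjusted p = 0.137). The second probe was at 0.10, -0.84 and -0.55 in silenced fibres of day 7, against 2.78, 2.40, 1.79 and 2.76 in transfected controls. The day 14 levels were 1.28, 1.00, 2.38 and 1.17 in silenced fibres, against 3.56, 2.73, 3.21 and 2.67 in transfected controls. Silenced and control fibres did not overlap on either day at this probe. Its mean over both days was 0.65 ± 1.14 (SD) in silenced fibres, against 2.74 ± 0.52 in transfected controls. With the MCU vector it was 0.93 ± 0.48, against 0.86 ± 0.34 in wild type. The 2 pairs of arms were on different slides, so these means are set side by side without a test. The second probe fell by 2.22 over both days (SE 0.23, 4.67-fold, adjusted p = 2.66e-06 in the limma fit over probes, in which 13.4% of all probes passed). It fell by 2.86 at day 7 (adjusted p = 1.10e-05) and by 1.59 at day 14 (adjusted p = 0.00456), where 12.5% and 3.59% of all probes passed. The difference between the days did not pass (1.27, SE 0.47, adjusted p = 0.133, with 3.90% of all probes passing). With its 2 probes averaged, Sgms1 passed over both days of silencing, with a difference of -1.27 (SE 0.15, adjusted p = 7.97e-06). Neither probe passed with the MCU vector: the chosen one differed by 0.26 (SE 0.14, adjusted p = 0.449) and the second by 0.09 (SE 0.23, adjusted p = 0.915). Which transcript of the Sgms1 locus the second probe reports was not tested.

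Ugcg, which makes glucosylceramide and so opens the route to glycosphingolipids, was -2.29, -1.79 and -1.40 in silenced fibres of day 7, against -1.23, -1.16, 0.98 and -0.95 in transfected controls. At day 14 Ugcg was -0.88, -1.35, -1.71 and -1.53 in silenced fibres, against -0.43, -0.48, -0.64 and -1.73 in transfected controls. The groups did not overlap at day 7, and at day 14 fibre 4 of the controls was below every silenced fibre. Ugcg fell by 0.89 over both days (SE 0.27, 1.85-fold, adjusted p = 0.0269) and by 1.23 at day 7 (SE 0.39, adjusted p = 0.0370); the day 14 difference of -0.55 did not pass (adjusted p = 0.435). The call over both days was lost without fibre 1 of the day 14 controls (adjusted p = 0.0531), without fibre 1 of the day 7 silenced group (0.0736), without fibre 3 of the day 14 silenced group (0.0523), and under 3 of 12 other settings, so it was marginal. The day 7 call was lost without fibre 3 of the controls (-0.71, adjusted p = 0.126), without fibre 1 or 2 of the silenced group (0.137 and 0.0810), and under 4 of 12 other settings (adjusted p from 0.0545 to 0.138). Ugcg ranged from -2.31 to -1.74 with the MCU vector, against -2.69 to -1.52 in wild type, a difference of 0.05 (SE 0.27, adjusted p = 0.959).

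Counted together by their chosen probes in the fit reported, 2 of the 5 genes not chosen for their falls, Sgpl1 and Ugcg, passed over both days of silencing and both were lower. Of all genes tested 14.1% passed there, 6.10% lower and 8.00% higher. At day 7 these 2 of 5 passed, both lower, against 13.4% of all genes (8.28% higher and 5.17% lower). At day 14 0 of the 5 passed in limma, against 3.46% of all genes (1.54% higher and 1.92% lower), and 2 had an unadjusted p under 0.05, Sgpl1 (0.00221) and Sgpp1 (0.00519). Silenced fibres lay below transfected controls without overlap in Sgpl1 and Ugcg at day 7 and in Sgpl1 at day 14, where 8.21% and 4.82% of all genes did so. Sgpl1 was below without overlap on both days, as were 1.22% of all genes. In the MCU vector comparison 0 of the 7 genes passed in limma, over both days, at day 7 or at day 14, where 1.13%, 0.574% and 0.428% of all genes passed. At an unadjusted p under 0.05 there were Sphk1 (0.0385) and Sgms2 (0.00373) over both days, Sgpl1 (0.0344) and Sgms2 (0.00457) at day 14, and none at day 7.

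**Figure D2:**
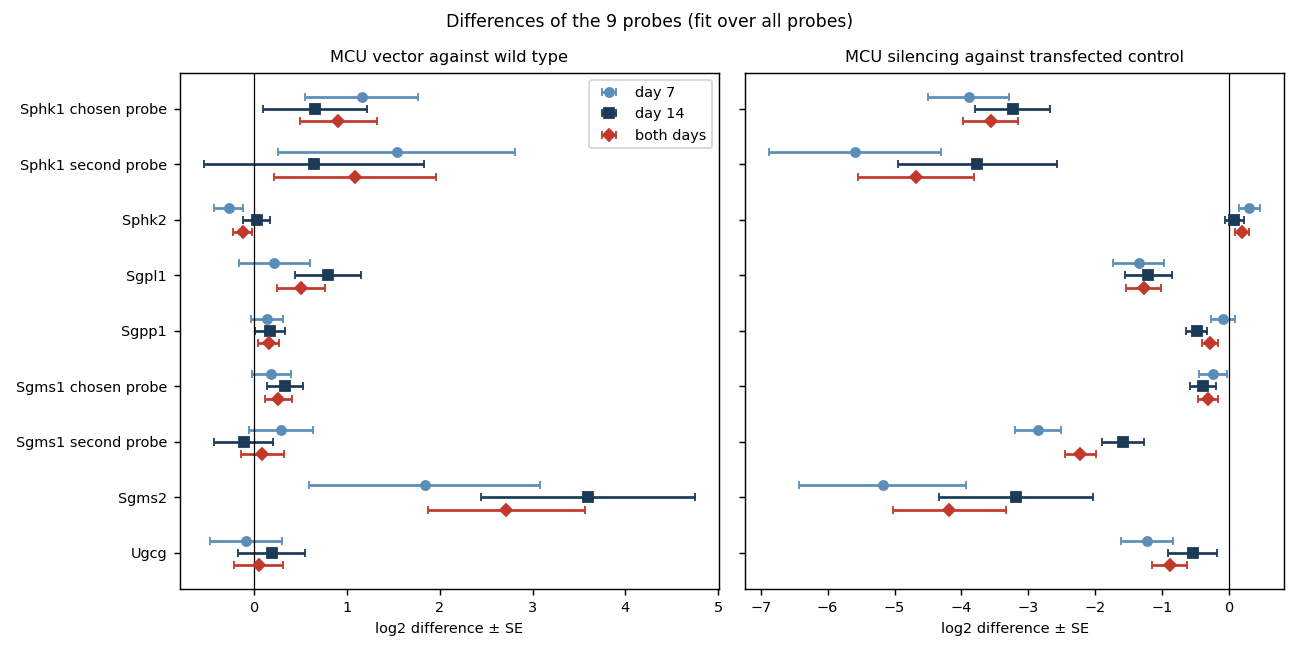
Differences in log2 level ± SE from the limma fit over probes, for the 9 probes at day 7, at day 14 and over both days; left, MCU vector against wild type; right, MCU silencing against transfected control. In the right panel the largest shifts are those of both Sphk1 probes and Sgms2, which were chosen for it, and the second Sgms1 probe sits at -2.22 where the chosen one sits at -0.32.

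Over the 30 fibres the 2 Sphk1 probes had a Pearson correlation of 0.964, and 0.886 after each group's mean was removed. The chosen Sphk1 probe and Sgms2 had a correlation of 0.749, and 0.624 within groups. For the second Sphk1 probe and Sgms2 it was 0.679, and 0.474 within groups. Sgms2 and Sgpl1 had 0.751, and 0.653 within groups. Sphk1 and Ugcg had 0.676 over all fibres but -0.14 within groups, and the 2 Sgms1 probes had 0.407 over all fibres and 0.103 within groups. Of 34 pairs of probes of different genes, 2 had a correlation above 0.5 within groups, both with Sgms2, and the median was 0.0997. These are descriptions over fibres that share slides and amplification, with many Sgms2 values below background. Sphk1 and Sgms2 were both chosen for falls with silencing, so their correlation over all fibres is set in part by that choice. Values without the pair of fibres described next were not computed.

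A pair of fibres was high in several of these genes at once. Fibre 1 of the MCU-vector group of day 7 was the highest of its group in Sphk1, at 2.21, in Sgms2, at -0.38, and in the second Sgms1 probe, at 1.95 against 0.79 and 0.43 in the other 2. Fibre 1 of the day 14 transfected controls was the highest of all 30 fibres in Sphk1, Sgms2, Sgpl1 and the second Sgms1 probe.

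**Figure D3:**
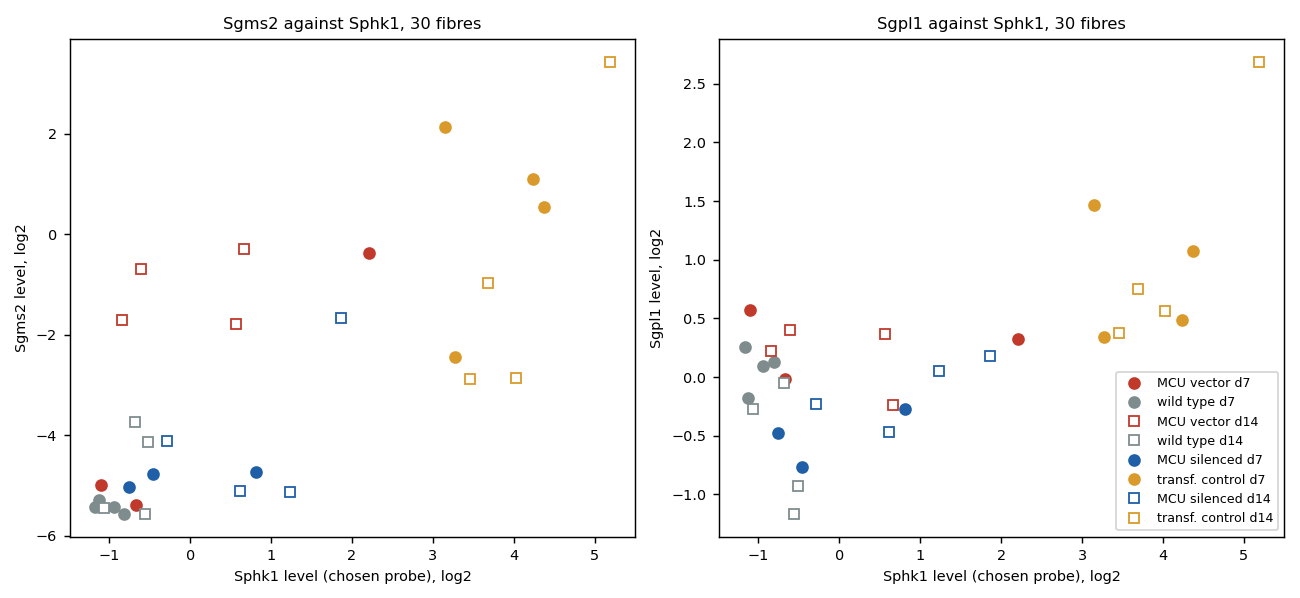
Sgms2 (left) and Sgpl1 (right) against Sphk1 (chosen probe) in the 30 fibres, each axis a log2 level relative to the 75th percentile of the array; filled circles are day 7 and open squares day 14. The 8 transfected controls lie to the right of Sphk1 levels of 3.15, and 1 of them, at day 14, has the highest level of all 3 genes.

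Among 15064 genes compared, the 5 whose levels over the 30 fibres were most like those of Sphk1 were Sbno2 (Pearson 0.946), the tubulin Tubb6 (0.944), the histone demethylase relative Jmjd1c (0.941), the translation initiation factor Eif1a (0.940) and the kinase Map3k8 (0.940). Within groups their correlations with Sphk1 lay between 0.658 and 0.858. For Sgms2 they were Ehd4 (0.928), the small heat shock protein Hspb8 (0.876), the kinase Mapk6 (0.872), Vasn (0.872) and Mustn1 (0.868), between 0.707 and 0.893 within groups. These genes were picked for their likeness over all fibres, so a similar order of group means follows from that choice. Mean levels of Tubb6 were 1.09 in silenced fibres, against 3.21 in transfected controls, and 0.83 with the MCU vector, against -0.10 in wild type. Mean levels of Ehd4 were 3.05 in silenced fibres, against 4.46 in transfected controls, and 3.88 with the MCU vector, against 2.96 in wild type. Map3k8 was well above background on 13 of 30 arrays and Sgms2 on 12, so correlations with them rest in part on values below background.

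The promoters of the 7 genes were searched for 1 motif, as a description of sequence; that Sphk1 and Sgms2 both fell with silencing is how they were chosen. RefSeq promoter windows of build GRCm38.p6, from 250 bases before to 50 after a start, were available for all 7 genes. The motif was TGANTCA, the site of AP-1, a dimer of Fos and Jun family proteins, which reads the same on both strands. It occurred in 7.81% of 32851 windows, or in at least 1 window of 8.97% of 27025 genes. It occurred in at least 1 window of 3 of the 7 genes: in 2 of 5 windows of Sphk1, which overlap at the same site, in 2 of 6 of Sgms2 and in 1 of 4 of Sgms1. Genes with more windows have more chances of a match. None of the windows of Sphk2, Sgpl1, Sgpp1 and Ugcg held it. The matches are shown with 10 bases on each side and the motif in capitals; a match is a description of sequence and not evidence of binding.

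Sphk1 promoter, chr11:116531777-116531803, plus strand: agcgtgtcgcTGAGTCAccttctcgga
Sgms2 promoter, chr3:131490783-131490809, minus strand: caccacccctTGAGTCAgcgggtgccc
Sgms2 promoter, chr3:131490390-131490416, minus strand: gggcccggggTGAGTCAcggctgggag
Sgms1 promoter, chr19:32211051-32211077, minus strand: gcgcggggccTGACTCActtcattagc

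The rest of the pathway was followed with a list of 71 genes in 6 roles, 70 of which had a probe under their name and 52 of which passed the filter. With silencing, leaving out Sphk1 and Sgms2, 8 of 50 measured genes (16%) were lower and 1 (2%) was higher over both days, against 6.10% lower and 8.00% higher among all genes. The median difference of these 50 was -0.05, beside 0.04 over all genes. Without any of the 7 members, 6 of 45 were lower and 1 higher. At day 7 there were 6 lower (12%) and 1 higher (2%) of 50, against 5.17% and 8.28% of all genes. At day 14 there were 2 lower (4%), Samd8 and St3gal5, and 0 higher, against 1.92% and 1.54% of all genes.

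In sphingomyelin and glycosphingolipid synthesis, leaving out Sgms2, 3 of 7 measured genes (42.9%, against 6.10% of all genes) fell and none rose, with a median of -0.50. Beside Ugcg, whose call was marginal, these were Samd8, which makes ceramide phosphoethanolamine, and B4galt5, which makes lactosylceramide. Samd8 ranged from 1.47 to 1.73 in silenced fibres of day 7, against 2.11 to 2.20 in transfected controls. On day 14 it ranged from 2.15 to 2.21 in silenced fibres, against 2.55 to 2.62 in transfected controls. These narrow groups did not overlap on either day, and Samd8 fell by 0.50 (SE 0.07, adjusted p = 0.000131). B4galt5 fell by 0.93 (SE 0.18, adjusted p = 0.00169), and its other probe by 1.12 (adjusted p = 2.86e-05). The mean B4galt5 level over both days was 1.57 in silenced fibres, against 2.50 in transfected controls. With the MCU vector, on other slides, it was 2.31, against 1.89 in wild type. Both genes passed under each of 12 other settings and whichever fibre was left out.

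St3gal5, which adds sialic acid to lactosylceramide, did not pass over both days (-0.68, adjusted p = 0.121). At day 14 it fell by 1.73 (SE 0.40, adjusted p = 0.0158), with 1.40, 0.62, 1.95 and -0.78 in silenced fibres, against 1.86, 2.27, 2.91 and 3.08 in transfected controls. The day 14 call was lost without fibre 4 of the controls (-1.55, adjusted p = 0.0585). At day 7 the difference was 0.37 (adjusted p = 0.615). The difference between the days was -2.10 (SE 0.59, adjusted p = 0.0438), a test that 4.13% of all genes passed, and it missed the threshold under 6 of 12 other settings and when any 1 of 11 of the 15 fibres was left out.

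In de novo ceramide synthesis 3 of 11 measured genes (27.3%, against 6.10% of all genes) fell and none rose, with a median of -0.32. They were Kdsr, the reductase that follows serine palmitoyltransferase (-1.05, SE 0.30, adjusted p = 0.0204), the ceramide synthase Cers5 (-1.56, SE 0.53, adjusted p = 0.0485) and Ormdl1, a regulator of serine palmitoyltransferase (-0.58, SE 0.17, adjusted p = 0.0242). Kdsr was well above background in none of the 3 silenced fibres of day 7, against 4 of 4 transfected controls, which makes it at least 1.66-fold lower there. Its difference over both days was -0.41 with dim spots at the floor (adjusted p = 0.275) and -0.16 after normexp (adjusted p = 0.237), and it missed the threshold without fibre 1 of the day 7 silenced group (adjusted p = 0.0513). Cers5 missed it when any 1 of 10 of the 15 fibres was left out (-0.99 and adjusted p = 0.189 without fibre 3 of the day 7 silenced group), and under 5 of 12 other settings, and Ormdl1 without fibre 1 of the day 14 controls or fibre 1 of the day 7 silenced group (0.0517 and 0.0749).

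In breakdown, 1 of 16 measured genes (6.25%, against 8.00% of all genes) rose and none fell, with a median of 0.07. It was the lysosomal beta-galactosidase Glb1, whose difference turned between the days. At day 7 Glb1 was 1.82, 2.25 and 1.69 in silenced fibres, against -1.83, -0.98, -0.92 and -1.74 in transfected controls. At day 14 Glb1 was -0.57, -1.58, -0.79 and -1.11 in silenced fibres, against 1.45, 1.20, -1.27 and -1.19 in transfected controls. The groups lay far apart at day 7, and at day 14 the controls split into a pair above and a pair within the silenced range. Glb1 rose by 3.29 at day 7 (SE 0.47, adjusted p = 8.49e-05), and the day 14 difference of -1.06 did not pass (adjusted p = 0.188). The difference between the days was -4.34 (SE 0.64, adjusted p = 0.000224), and the value over both days was 1.11 (adjusted p = 0.0224). That last call was lost without fibre 4 of the day 14 controls (adjusted p = 0.0508) or fibre 2 of the day 7 silenced group (0.0541), whereas those at day 7 and between the days were kept without any 1 fibre. In MCU-vector and wild type fibres Glb1 lay between 0.71 and 1.73.

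In transport, 1 of 8 measured genes (12.5%, against 6.10% of all genes) fell, the ceramide-1-phosphate carrier Cptp (-0.70, SE 0.21, adjusted p = 0.0253), with a median of -0.01 for the role. It missed the threshold when any 1 of 4 of the 15 fibres was left out (adjusted p from 0.0517 to 0.0805) and on only the groups compared (0.0846). That fit also ended the calls of Kdsr (0.0769), Cers5 (0.157) and Glb1 (0.108) over both days and of St3gal5 at day 14 (0.126). Among S1P kinases, phosphatases and lyase, leaving out Sphk1, 1 of 8 (12.5%, against 6.10% of all genes) fell, Sgpl1, with a median of -0.04. None of the 5 S1P receptors passed the filter; S1pr3 was well above background on 12 of 30 arrays, S1pr1 on 4, S1pr5 on 2, S1pr4 on 1 and S1pr2 on 0.

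Among MCU-vector fibres 0 of 52 measured genes passed in limma over both days, on day 7 or on day 14. At an unadjusted p under 0.05 there were 6 higher and 3 lower over both days, with a median of -0.003 beside -0.02 over all genes. The nearest to the threshold was Abca1, a lipid exporter of the plasma membrane, with 1.30 (SE 0.34, adjusted p = 0.0561). It ranged from 0.14 to 0.96 with the MCU vector at day 7, against -2.97 to -0.29 in wild type. At day 14 Abca1 ranged from -1.09 to -0.70 with the MCU vector, against -2.51 to -0.83 in wild type. Abca1 passed under 5 of 12 other settings and when any 1 of 3 of the 15 fibres was left out. Next came Cptp (0.68, adjusted p = 0.123), Gm2a (0.44, adjusted p = 0.133) and Gla (-0.27, adjusted p = 0.173).

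**Figure D4:**
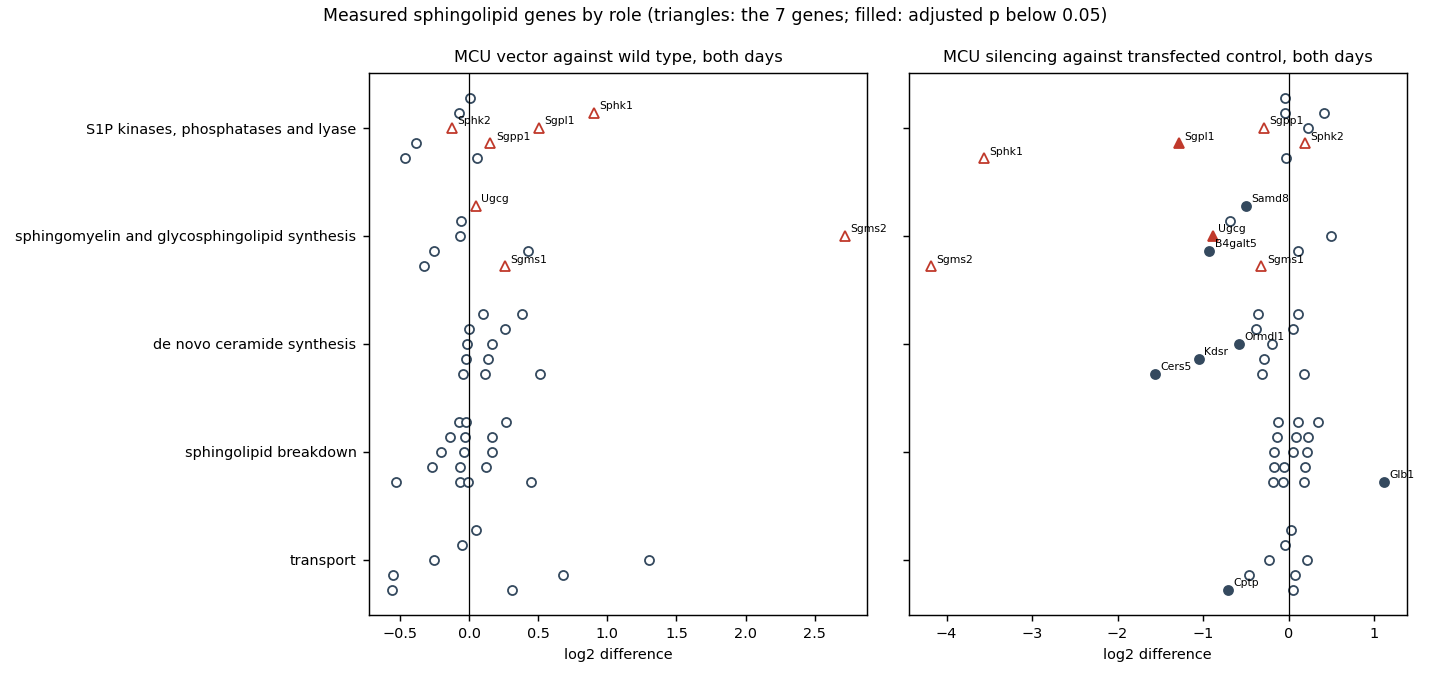
Log2 differences over both days of the 52 measured sphingolipid genes by role, MCU vector against wild type on the left and MCU silencing against transfected control on the right; triangles are the 7 enzymes, circles the other genes, filled symbols passed at an adjusted p below 0.05, and heights within a role only spread the points. On the right, 6 of the 8 filled symbols left of 0 lie in the 2 synthesis roles, which hold 8 and 11 of the 52 genes. Sphk1 and Sgms2 are drawn unfilled on the right because they were chosen for that comparison.

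Summed levels of markers of other cells, given as log2, did not overlap between groups in some lists. Each of these sums was carried mainly by 1 probe: Itgam for macrophages and leukocytes, with a mean level of 8.11 where the next, Csf1r, had 4.56, Kdr for endothelial cells (3.56, next -1.71) and Sox10 for Schwann cells (0.50, next -2.37). Macrophage and leukocyte markers (7 of 8 well above background in silenced fibres and 8 of 8 in transfected controls) ranged from 8.19 to 8.39 in silenced fibres of day 7, against 7.89 to 8.11 in transfected controls. Adgre1 was well above background in none of these silenced fibres. Schwann cell markers (2 of 4 in silenced fibres and 4 of 4 in controls) ranged from 0.83 to 1.60 in silenced fibres of day 7, against -0.28 to 0.52 in transfected controls. Endothelial markers (6 of 6 in silenced fibres and 4 of 6 in controls) ranged from 3.58 to 3.68 in silenced fibres of day 14, against 3.72 to 3.85 in transfected controls. Schwann cell markers ranged from 0.43 to 0.86 with the MCU vector at day 7, against 1.31 to 1.73 in wild type. The other lists overlapped on both days in both comparisons. Their part in the differences above was not tested, and for RNA from cells attached to a fibre, fewer cells and less RNA per cell cannot be told apart.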

How the data were processed

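Each of 30 fibres was hybridised to its own array. The deposited scanner files hold spot intensity which, per the file headers, Agilent Feature Extraction 10.7.3.1 had corrected by spatial and multiplicative detrending; positions are on mm9. RNA was amplified by PCR and labelled with random primers, per the labels' protocols, so strand was not kept and signal need not scale with transcript number. Samples were grouped by title. Here log2 intensity was taken minus the 75th percentile of each array, leaving out control spots and outlier flags. Probes well above background (at least 50% of spots) in 3 or more fibres of any group entered the tests, and the kept probe with the highest mean stood for a gene. Symbols were updated through RefSeq genes. A model with 8 group means was fitted with limma 3.58.1 in R 4.3.3 with the data.table package, version 1.17.8, to all 23342 genes, or to 33164 probes, with moderated 2-sided statistics on 22 residual degrees of freedom before moderation and Benjamini-Hochberg adjustment over all of them, at a threshold of 0.05; intervals are 95% and unadjusted. Both-day effects average the effects of day 7 and day 14. The procedure was checked on simulated data. Figures used matplotlib 3.10.9.

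The members and lists were chosen with earlier results of these data known. Genes named are the members, list genes past the threshold, the 2 with the largest statistic in each role (not all are printed), the 5 most alike and Mcu. P-values measure only the spread between fibres. The deviations of fibres with the same number in treated and control groups correlated between -0.175 and 0.186, above 0.1 in 4 of 14 pairs, so fibres were treated as unpaired. The number of arrays limits precision. The submitters' values in the deposited series matrix, intensity on a linear scale with column medians from 22.5 to 23.2 and steps not given in the sources used here, correlated with their own arrays at 0.998 or more and with others at 0.981 at most, and served as an alternative. Others were the scaling, background correction, filter, probe rule, samples in the fit, array weights, replicate number as a block, and leaving out each fibre.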

Additional observations from a re-analysis of the deposited data

Results flagged for a closer look

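Within groups of 4 fibres, 6 values among 54 groups checked stood farther from the rest than Dixon's 95% limit allows; chance gives about 1 in 20. The second Sphk1 probe was -2.29 in fibre 4 of wild type day 14, where the nearest of the others was -3.02. Of these 4 fibres only fibre 4 was well above background at this probe. The second Sgms1 probe was 0.12 in fibre 3 of wild type day 7 (nearest 0.90) and 0.98 in fibre 2 of the MCU vector group of day 14 (nearest 0.80). Sgpl1 was 2.69 in fibre 1 of the day 14 transfected controls (nearest 0.75). Ugcg was 0.98 in fibre 3 of the day 7 transfected controls (nearest -0.95) and -1.73 in fibre 4 of the day 14 transfected controls (nearest -0.64). Groups of 3 fibres were not checked in this way.

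The difference between silenced fibres and transfected controls changed between the days for Glb1, by -4.34 on the log2 scale (day 14 minus day 7, SE 0.64, adjusted p = 0.000224 in limma). The Glb1 controls of day 14 were split, at 1.45, 1.20, -1.27 and -1.19, and fibres of a group may share an animal. For St3gal5 the change was -2.10 (SE 0.59, adjusted p = 0.0438), and it missed the threshold under 6 of 12 other settings.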

How the results depend on the processing

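Sphk1 and Sgms2 were chosen for their falls with silencing, so the ranges given for that comparison are a description without a test. The difference of Sphk1 lay between -4.12 and -3.09 under 12 other settings and between -3.80 and -3.37 without any 1 fibre. Sgms2 was -4.18 in the fit reported, -1.66 after normexp, -2.38 with dim spots at the floor, and from -4.64 to -3.47 without any 1 fibre. With the MCU vector Sgms2 passed in the fit on only the groups compared (2.72) and with array weights (2.34), but was 1.42 with dim spots at the floor and 0.81 after normexp, and was 1.91 to 3.17 without any 1 fibre; Sphk1 there was 0.39 to 1.22. Sgpl1 passed over both days throughout.

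Numbers of genes called moved more. With the MCU vector 263 of all genes passed over both days, 510 after normexp, 1298 with array weights, 142 with the replicate block and 171 to 300 without 1 fibre (172 and 171 without fibre 1 or 2 of the MCU vector group of day 7). Silencing gave 3292, 1612 on only the groups compared and 2484 to 3695 without 1 fibre. Of the sphingolipid list with the MCU vector, 0 passed; over both days 1 passed after quantile normalization, in the series matrix, with dim spots at the floor and on only the groups compared, 4 after normexp, 6 with array weights and 0 to 1 without 1 fibre (1, Abca1, without fibre 2 or 3 of wild type day 7 or fibre 2 of wild type day 14). At day 7 it was 1 after normexp and with array weights, and at day 14 1 after normexp, with array weights and on only the groups compared, with 0 without any 1 fibre. With silencing, without Sphk1 and Sgms2, 9 passed over both days, 4 on only the groups compared and 6 to 9 without 1 fibre. At day 7 it was 7, with 3 on only the groups compared, 4 with array weights and 4 to 7 without 1 fibre (4 without fibre 3 of the controls or fibre 2 of the silenced group). At day 14 it was 2, with 5 after median scaling, 4 with probes averaged, 0 on only the groups compared or with the replicate block, and 1 with the other percentile, quantile normalization, the series matrix or array weights, and 0 to 3 without 1 fibre (0 without fibre 4 of the controls, 1 without fibre 1 of the controls or fibre 3 of the silenced group).

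Signs turned only for differences near 0 with the MCU vector. The second Sgms1 probe, 0.09, was -0.029 with array weights, -0.019 without fibre 3 of wild type day 7 and -0.14 without fibre 1 of the MCU vector group of day 7 (-0.14 to 0.24 over all fibres left out). Ugcg, 0.05, was -0.025 without that MCU-vector fibre and -0.040 without fibre 2 of wild type day 14 (-0.040 to 0.15). With replicate number as a block, Sphk1 was -3.64 and Sgms2 -4.64 with silencing, and among the calls over both days Cers5 (adjusted p = 0.096) and Glb1 (0.0527) were lost. The slide as a block was not run, because each slide holds 1 treated group with its control and the group means already absorb it. Where a cause is not given by how a setting is made, the cause was not tested.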
